A study of Homo sapiens with 16 samples.

Results

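The 38 mitosis and G2/M genes described here were chosen by name, for their known part in cell division. They were found by symbol in both deposited tables, which list 14108 genes in all, and all 38 are in both. They fall into 9 roles, which are cyclins and CDK1 (4 genes), mitotic kinases (6), checkpoint and anaphase-promoting complex (4), kinetochore and centromere (6), chromosomal passenger complex (2), spindle motors and microtubule proteins (7), central spindle and cytokinesis (5), chromosome structure (2) and mitotic entry regulators (2). RNA came from LN229, an established human glioblastoma cell line, and every library is of the same line with no added gene. The first experiment compared regular culture (complete medium) with ischemic culture, in which medium low in glucose, glutamine and serum was combined with hypoxia, in cells given no drug. The second compared DMSO, the solvent, with VX745, an inhibitor of the kinase p38α, and with MK25, an inhibitor of its target kinase MK2, each in regular and in ischemic culture. Each of the 8 groups has 2 libraries, which makes 4 libraries without drug and 12 with DMSO or an inhibitor.

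Cells enter mitosis when CDK1, bound to cyclin B, becomes active, and they leave it when the anaphase-promoting complex marks cyclin B and securin for destruction. Most of the genes below are transcribed late in the cycle, when the MMB complex and FOXM1 act on them, and are held silent in resting cells by the related DREAM complex. Both complexes find their genes through a short element called CHR, often beside CCAAT boxes bound by NF-Y, whereas genes of DNA replication more often carry sites for E2F. The mRNAs are therefore used as a mark of dividing cells, and glioblastoma is known for high levels of them. In RNA from a whole culture, fewer cells in G2 or M and less RNA per such cell cannot be told apart.

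Promoters are shown first, since shared control letters are what the roles have in common beyond the names. RefSeq start sites on GRCh38.p14 were available for 32 of the 38 genes, and AURKA, BIRC5, FOXM1, TPX2, TTK and UBE2C had no entry. Between 250 bases before and 50 after the start, on either strand, the CHR letters TTTGAA or TTCGAA were present in 25 of 32 promoters (78.1%), against 16.6% of all 27305 promoters of the table and 11.6% of those of genes listed in these data. CCAAT was present in 26 (81.3%), against 35.7% of all promoters, and 17 (53.1%) held it at least 2 times, against 11.3%. The E2F letters, read as TTTCCCGC or else TTTCGCGC, with TTTGCCGC and likewise TTTGGCGC as further forms, were in 3 (9.38%), against 3.33% of all promoters and 52.6% of 38 promoters of DNA replication genes, of which 5.26% held CHR letters. Among promoters of 84 other mitosis genes, 56.0% held CHR letters, 60.7% CCAAT, 32.1% CCAAT at least 2 times and 9.52% E2F letters. Among promoters of genes listed in these data, 36.7% held CCAAT, 13.7% at least 2 times, and 5.38% E2F letters. Where 2 motifs shared bases, each was counted. A match of letters is a description and not a shown binding site, and a missing match says only that these letters are not in this window. The 250 bases before the start of 6 genes are printed below, 5′ to 3′ on the strand of the gene, because these genes moved in different directions in ischemic culture. Capitals mark CHR letters and CCAAT, also where they are read on the other strand (as TTCAAA for CHR and ATTGG for CCAAT). All 6 lie on the plus strand, at chr5:69166900-69167149 (CCNB1), chr15:59104896-59105145 (CCNB2), chr1:43358731-43358980 (CDC20), chr16:23678639-23678888 (PLK1), chr5:138178862-138179111 (KIF20A) and chr1:44739587-44739836 (KIF2C).
CCNB1: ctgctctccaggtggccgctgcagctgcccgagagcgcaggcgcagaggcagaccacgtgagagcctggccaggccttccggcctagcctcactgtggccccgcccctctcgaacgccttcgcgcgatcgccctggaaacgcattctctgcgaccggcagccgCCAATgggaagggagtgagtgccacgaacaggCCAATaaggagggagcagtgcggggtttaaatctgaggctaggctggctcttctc
CCNB2: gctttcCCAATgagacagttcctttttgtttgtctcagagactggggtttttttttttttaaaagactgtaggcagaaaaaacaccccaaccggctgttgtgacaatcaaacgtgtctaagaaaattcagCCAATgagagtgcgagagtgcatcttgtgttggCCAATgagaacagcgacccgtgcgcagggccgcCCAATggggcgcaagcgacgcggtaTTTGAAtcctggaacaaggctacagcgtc
CDC20: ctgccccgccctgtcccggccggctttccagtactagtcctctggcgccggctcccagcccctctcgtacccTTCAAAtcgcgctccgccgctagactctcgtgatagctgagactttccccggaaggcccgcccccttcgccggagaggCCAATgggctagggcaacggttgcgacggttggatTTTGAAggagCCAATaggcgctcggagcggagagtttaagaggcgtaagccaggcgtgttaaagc
PLK1: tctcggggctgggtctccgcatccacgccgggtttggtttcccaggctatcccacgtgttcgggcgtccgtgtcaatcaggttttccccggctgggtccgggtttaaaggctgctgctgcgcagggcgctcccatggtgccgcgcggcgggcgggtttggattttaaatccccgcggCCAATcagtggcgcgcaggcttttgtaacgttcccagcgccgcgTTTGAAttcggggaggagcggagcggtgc
KIF20A: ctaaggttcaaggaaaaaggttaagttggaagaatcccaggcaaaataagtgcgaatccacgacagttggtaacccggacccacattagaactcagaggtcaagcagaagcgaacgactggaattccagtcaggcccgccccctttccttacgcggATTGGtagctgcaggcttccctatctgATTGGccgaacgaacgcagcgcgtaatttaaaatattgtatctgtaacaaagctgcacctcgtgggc
KIF2C: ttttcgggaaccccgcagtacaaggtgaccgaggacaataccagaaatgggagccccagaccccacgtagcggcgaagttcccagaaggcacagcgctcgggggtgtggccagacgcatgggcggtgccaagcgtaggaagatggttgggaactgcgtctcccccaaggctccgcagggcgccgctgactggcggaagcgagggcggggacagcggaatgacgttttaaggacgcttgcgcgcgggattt
CCNB2 holds 4 CCAAT boxes, of which those that start at -120, -87 and -54 from the start site are evenly spaced, and CHR letters at -29. PLK1 has CHR letters at the same distance of -29 and a CCAAT at -73. CCNB1 has 2 CCAAT boxes, at -87 and -55, and KIF20A has 2 on the other strand, at -94 and -67, and in neither were CHR letters found. KIF2C held none of the motifs searched. In untreated ischemic cells, the median log2 change was -0.22 over the 25 genes with CHR letters and -0.30 over the 7 without, and -0.22 over the 26 with CCAAT and -0.26 over the 6 without.

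Reads on listed genes numbered between 22346073 and 28373993 per library in the first experiment and between 20122017 and 37562668 in the second, as recovered from the deposited values. In the second, the ischemic libraries held 27239609 to 37562668 reads and the regular ones 20122017 to 30228774, so depth differed with culture, and its part in the results was not tested. At these depths 3 reads correspond to log2 values between -2.71 and -2.16, far below every gene here, and the lowest, SPC25, lay between -0.85 and 0.65. Counts of the 2 libraries of a group were farther apart than sampling alone gives (chi-square divided by the number of genes, 3.28 to 9.32), so none was treated as a duplicate. The labels do not say that replicates are separate cultures, so p-values measure only the spread between these libraries. All 10 genes of a hypoxia list rose in untreated ischemic cells (median log2 change 4.55), which checks the culture labels. Of the glioma markers, VIM, NES and CD44 had log2 values of at least 8.40 in every library, SOX2 lay between 3.13 and 6.48, S100B between 4.54 and 5.47, GFAP between -0.36 and 1.06 and OLIG2 between 0.94 and 3.09. Of these 7 markers, 5 were called lower and 1 higher under ischemia in untreated cells (median -0.85), and 3 and 1 with DMSO (median -0.39), and their part in the results was not tested. PTPRC, AIF1, PECAM1, CDH5, RBFOX3 and MBP, markers of immune, endothelial, neuronal and oligodendrocyte cells, are not in the tables. CD68, a macrophage and microglia marker that other cells also express, is listed at 4.47 to 6.01 and rose under ischemia by 0.77 in untreated cells and 0.94 with DMSO.

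In untreated cells, ischemic culture lowered the mRNAs of CCNB1, CDC20, KIF20A, BIRC5, ANLN, AURKA and DLGAP5 by 1.51 to 1.91 fold, raised UBE2C by 1.61 fold, and left most others within a fold of 1.4. Values are log2 normalized CPM (reads on a gene, scaled to the depth of its library), a change is the difference of 2 group means on that scale, and its error is the standard error (SE) from limma. A gene passed the test at a Benjamini-Hochberg adjusted p under 0.05 over all genes of the comparison, and it was called if its fold change was also at least 1.5. Of 38 genes, 7 were called lower (18.4%) and 1 higher (2.63%), against 20.2% of 13559 genes called lower and 21.3% called higher. At any size, 20 genes passed lower and 4 higher, against 35.2% of all genes lower and a further 35.2% higher. These counts were 26 and 2 after quantile normalization, which moved the median of the 38 genes to -0.35, and 16 and 2 with no variance trend. Of all genes, 38.3% passed lower and 32.3% higher after quantile normalization, and 32.7% and 32.6% with no variance trend. The median change of the 38 genes was -0.22, against -0.01 over all genes, and the median absolute change was 0.23, against 0.49 over all genes. For comparison, the 1307 genes with a mean log2 value between 6.88 and 8.30, which is the middle of the range of the 38 genes, had a median change of 0.05. At a fold of 1.5, the share of the 38 genes called lower was therefore close to that of all genes. Among the 1307 genes of like abundance, 13.9% were called lower, less than the 18.4% of the 38 genes, and 21.3% higher. The share of the 38 genes called higher was below both backgrounds. At any size, a larger share of the 38 genes than of all genes passed lower, and a smaller share passed higher.

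**Figure D1:**
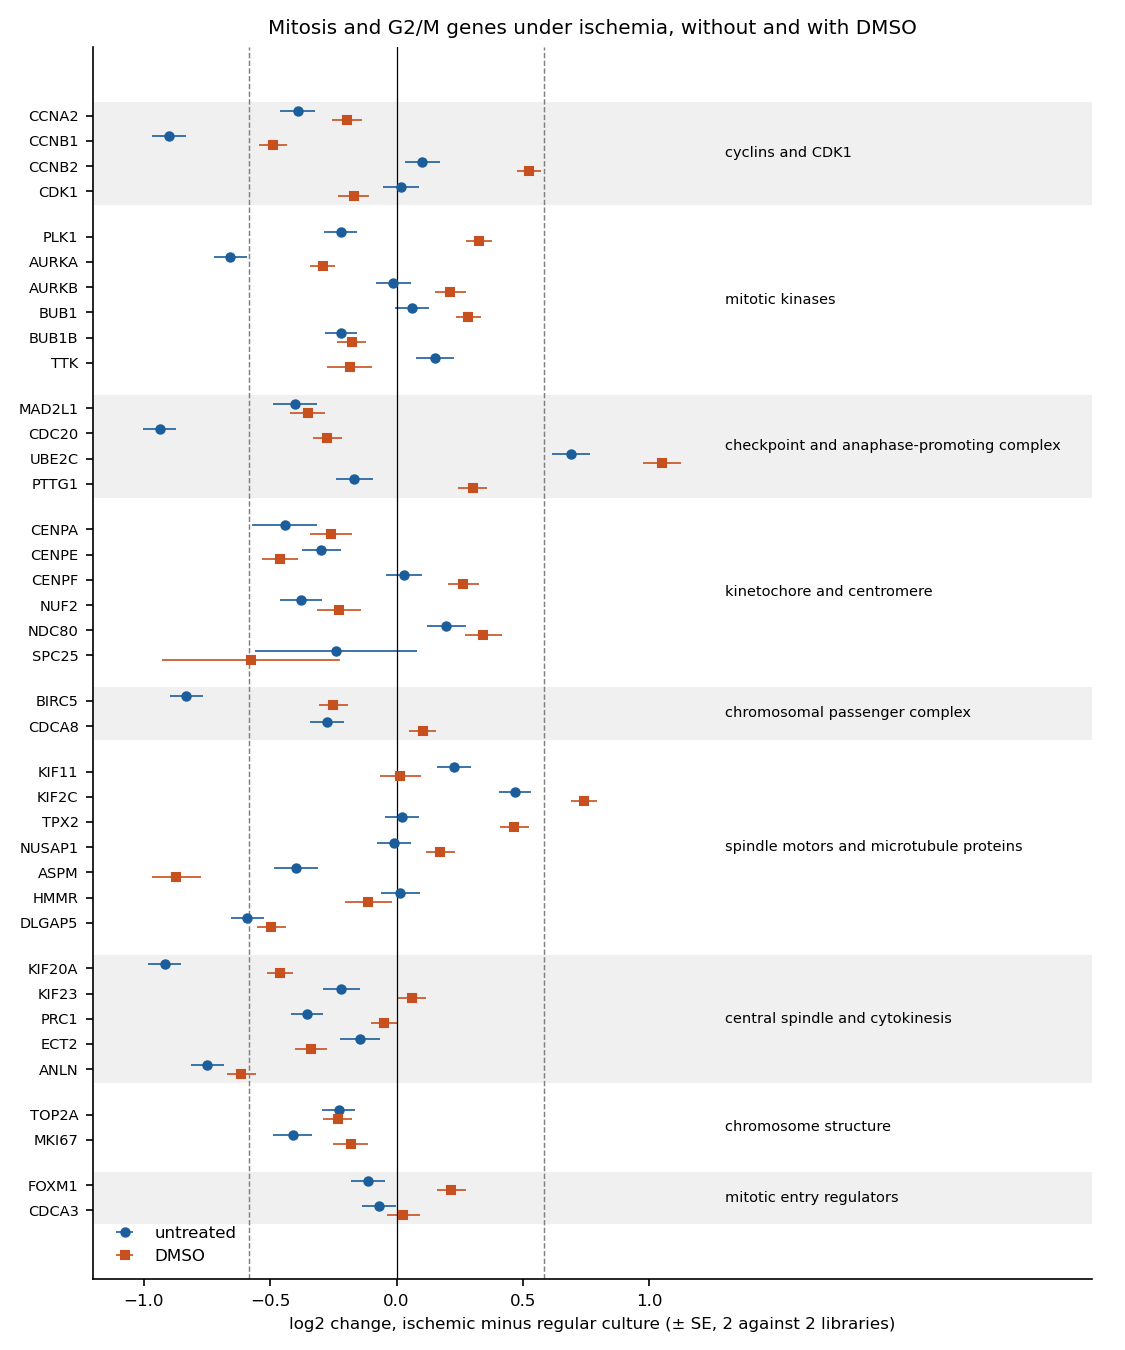
Log2 change between ischemic and regular culture for each of the 38 genes, grouped by role, in untreated cells (circles) and in DMSO-treated cells (squares). Bars are the SE from limma for 2 against 2 libraries, with the spread estimated from all libraries of the experiment and a trend over all genes. Dashed lines mark a fold change of 1.5. CDC20, KIF20A, CCNB1 and BIRC5 lie farthest left in untreated cells, at -0.83 to -0.94, and UBE2C and KIF2C lie farthest right in DMSO-treated cells, at 1.05 and 0.74.

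Among the cyclins and CDK1, the catalytic partner they activate, the members did not move together. CCNB1 (cyclin B1, the main partner of CDK1 in mitosis; chromosome 5, 69167150 to 69178245) had values of 8.64 and 8.54 in regular and 7.68 and 7.69 in ischemic untreated cells. The groups were apart by many times their spread, and the change was -0.90 ± 0.07 (SE, adjusted p = 1.44e-07 from limma). In DMSO-treated cells CCNB1 was at 8.53 and 8.43 in regular and at 7.99 and 7.99 in ischemic culture, a change of -0.49 ± 0.06. CCNB2, cyclin B2, went the other way in that experiment, with 7.18 and 7.16 in regular and 7.70 and 7.70 in ischemic cells (0.52 ± 0.05, adjusted p = 3.52e-08 from limma), while in untreated cells its change of 0.10 did not pass the test. CCNA2, cyclin A2, which acts from S phase to early mitosis, fell by 0.39 and by 0.20 on the log2 scale, the latter in 2 of 4 fits without 1 library. CDK1 itself was at 6.92 and 6.82 in regular and at 6.94 and 6.83 in ischemic untreated cells, and these groups overlapped (0.02 ± 0.07). With DMSO it fell by 0.17 ± 0.06 (adjusted p = 0.0206 from limma), which did not pass without regular DMSO replicate 1 (-0.10) or without either ischemic DMSO library.

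Of the mitotic kinases, AURKA (Aurora A, which matures centrosomes; chromosome 20, 56369390 to 56392215) fell most. Its values were 8.12 and 8.04 in regular and 7.40 and 7.44 in ischemic untreated cells, a change of -0.66 ± 0.07 (adjusted p = 2.11e-06 from limma). With DMSO it fell from 8.06 and 8.06 to 7.75 and 7.79 (-0.29 ± 0.05). AURKB, the kinase of the chromosomal passenger complex, showed no such fall, since its values of 6.39 and 6.32 in regular and 6.36 and 6.33 in ischemic untreated cells overlapped, and with DMSO it rose by 0.21 ± 0.06. PLK1, a kinase needed from mitotic entry to cytokinesis, was the only gene that passed the test in opposite directions in the 2 experiments. It fell from 8.20 and 8.26 to 8.0 and 8.03 in untreated cells (-0.22 ± 0.06, adjusted p = 0.00872 from limma; not passed without regular replicate 2), and it rose from 8.14 and 8.14 to 8.47 and 8.46 with DMSO (0.33 ± 0.05). The rise was 0.06 and did not pass after quantile normalization, and the fall in untreated cells was -0.40 there. Of the checkpoint kinases, BUB1B fell by 0.22 and 0.18 in the untreated and DMSO comparisons (in 3 and 2 of 4 fits without 1 library), BUB1 rose by 0.28 with DMSO (0.06 and not passed in untreated cells, and 0.11 and not passed with DMSO after quantile normalization), and TTK passed in neither (0.15 and -0.19).

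The largest fall and the largest rise were both found among genes of the anaphase-promoting complex. CDC20, its activator in metaphase (chromosome 1, 43358981 to 43363203), had values of 9.0 and 8.94 in regular and 8.03 and 8.04 in ischemic untreated cells, a change of -0.94 ± 0.06 (adjusted p = 7.84e-08 from limma). With DMSO the values were 8.74 and 8.70 against 8.42 and 8.48, a change of -0.27 ± 0.06. UBE2C, its ubiquitin-conjugating enzyme (chromosome 20, 45812644 to 45816952), rose instead, from 8.39 and 8.22 to 8.95 and 9.03 in untreated cells (0.69 ± 0.07) and from 8.32 and 8.20 to 9.20 and 9.42 with DMSO (1.05 ± 0.08, adjusted p = 1.30e-09 from limma). No ischemic library of UBE2C was below a regular one in either experiment, although after quantile normalization the untreated change was 0.50, under the fold of 1.5, so that 0 of the 38 genes were then called higher. MAD2L1, a checkpoint protein that holds CDC20 back, fell by 0.40 and 0.35. PTTG1, the securin that the complex destroys, was at -0.17 and did not pass in untreated cells (-0.28 and passed after quantile normalization), and it rose by 0.30 with DMSO (0.14 after quantile normalization). PTTG1 has near-identical copies elsewhere in the genome, and how reads that match several genes were counted is not given in the sources used here.

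**Figure D2:**
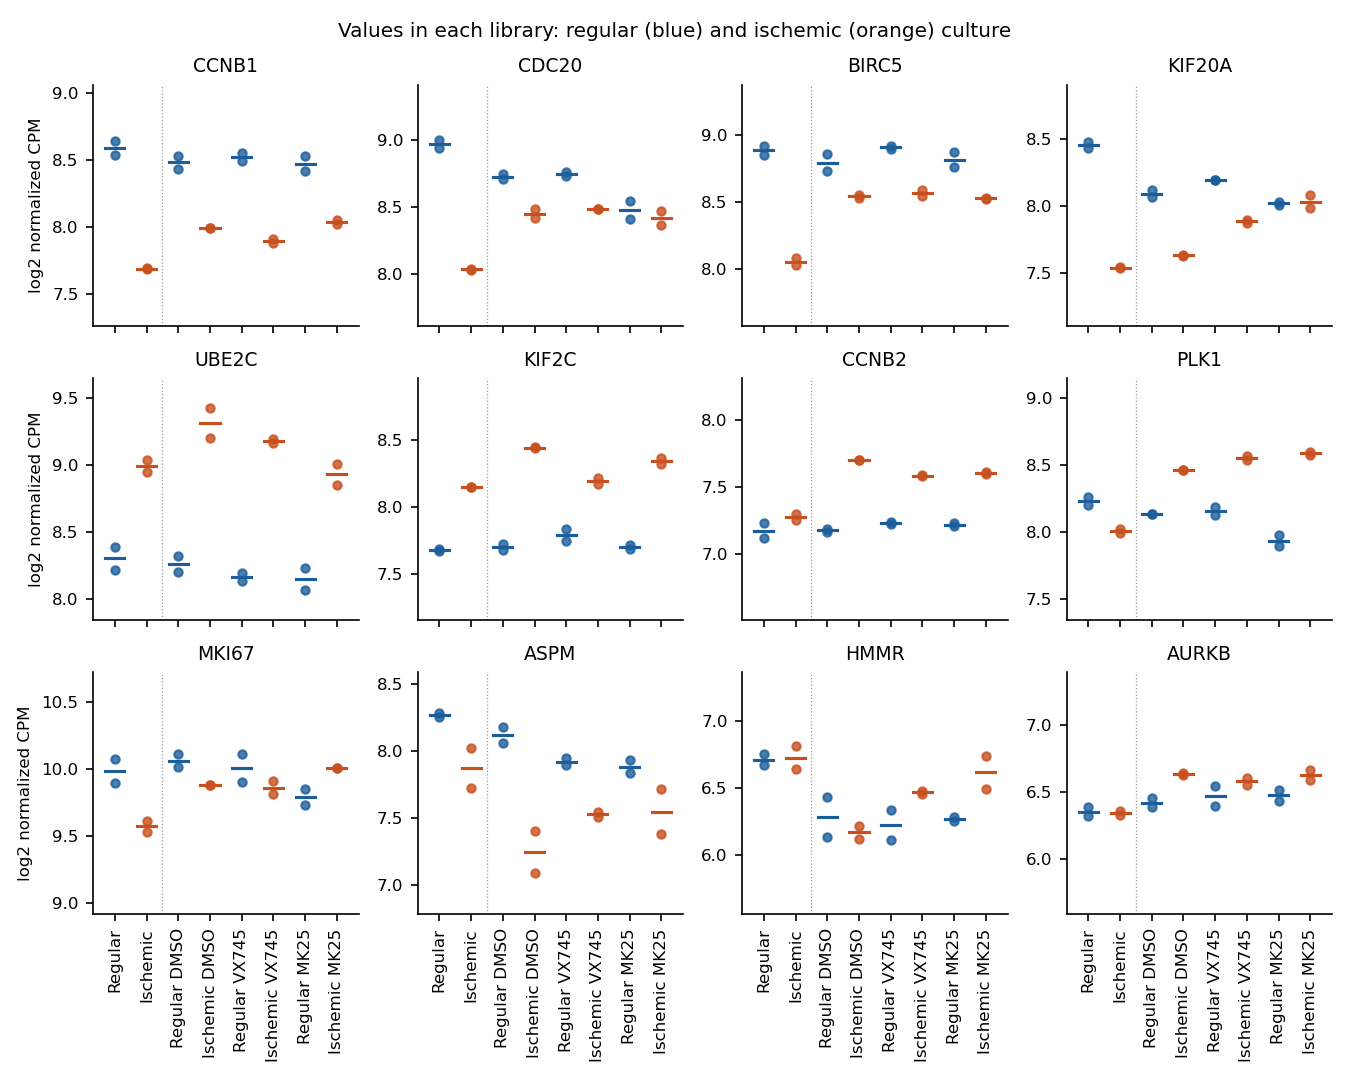
Log2 normalized CPM of 12 genes in each library of the 8 groups, regular culture in blue and ischemic in orange; points are libraries, horizontal bars are group means, the dotted line parts the 2 separately normalized experiments, and each panel spans the same number of log2 units. The 2 libraries of a group lie close together for CCNB1, KIF20A and KIF2C, and farther apart for ASPM and HMMR.

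BIRC5 (survivin, of the chromosomal passenger complex that corrects attachments of chromosomes; chromosome 17, 78214253 to 78225635) fell from 8.92 and 8.85 to 8.03 and 8.08 in untreated cells. The change was -0.83 ± 0.07 (adjusted p = 2.53e-07 from limma), and with DMSO it was -0.25 ± 0.06, from 8.86 and 8.73 to 8.55 and 8.53. CDCA8 (borealin), of the same complex, fell by 0.28 in untreated cells and did not pass with DMSO (0.10). At the kinetochore and centromere, no gene was called. CENPA, the histone variant that marks centromeres, was at 5.54 and 5.49 in regular and at 5.32 and 4.82 in ischemic untreated cells. This change of -0.44 ± 0.13 passed only in the fit without ischemic replicate 1 of the 4 fits without 1 library, and it was -0.19 without ischemic replicate 2. With DMSO it fell by 0.26, in 2 of 4 fits without 1 library. CENPE, a motor that moves chromosomes to the equator, fell by 0.30 and 0.46, and NUF2 fell by 0.38 and 0.23, the latter in only 2 of 4 fits without 1 library (-0.11 to -0.34). NDC80, which forms a dimer with NUF2 in the complex that binds microtubules, rose by 0.20 and 0.34, and the first of these passed in only 1 of 4 fits without 1 library and not with libraries centred on their median (0.16). CENPF rose by 0.26 with DMSO and was at 0.03 in untreated cells, and after quantile normalization it was at -0.11, not passed, with DMSO and passed lower at -0.20 in untreated cells. SPC25, a partner of NDC80, had only about 1 CPM and SE of 0.32 and 0.35, too wide to show a change of the size seen in the other genes.

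Spindle motors and microtubule proteins moved both ways. DLGAP5, which stabilizes spindle fibres (chromosome 14, 55148135 to 55191585), fell from 7.21 and 7.16 to 6.61 and 6.58 in untreated cells (-0.59 ± 0.07) and from 7.04 and 7.08 to 6.54 and 6.59 with DMSO (-0.49 ± 0.06). ASPM, a spindle pole protein (chromosome 1, 197084127 to 197146669), had its larger fall with DMSO, from 8.06 and 8.18 to 7.40 and 7.09 (-0.87 ± 0.10, adjusted p = 3.96e-07 from limma), against -0.40 ± 0.09 in untreated cells. KIF2C, a kinesin that depolymerizes microtubules at centromeres (chromosome 1, 44739837 to 44767767), rose from 7.69 and 7.67 to 8.15 and 8.15 (0.47 ± 0.06), and with DMSO from 7.72 and 7.68 to 8.44 and 8.45 (0.74 ± 0.05). KIF11, the motor that pushes spindle poles apart, rose by 0.23 in untreated cells (in 3 of 4 fits without 1 library, and 0.07 and not passed after quantile normalization) and was at 0.02 with DMSO. TPX2, which activates Aurora A, and NUSAP1 were near 0 in untreated cells (0.02 and -0.01) and rose by 0.47 and 0.17 with DMSO, and NUSAP1 passed with DMSO in 2 of 4 fits without 1 library. After quantile normalization both passed lower in untreated cells (-0.24 and -0.18) and neither passed with DMSO (0.11 and -0.01). HMMR passed in neither comparison (0.02 and -0.11).

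Of the 5 genes of the central spindle and of cytokinesis, 4 passed lower in untreated cells and 3 with DMSO, and 0 passed higher in either, by limma or after quantile normalization. KIF20A, a kinesin of the central spindle (chromosome 5, 138179112 to 138187723), fell from 8.43 and 8.48 to 7.53 and 7.54 in untreated cells (-0.92 ± 0.06, adjusted p = 8.54e-08 from limma) and from 8.12 and 8.06 to 7.63 and 7.63 with DMSO (-0.46 ± 0.05). ANLN (anillin, a scaffold of the contractile ring; chromosome 7, 36389862 to 36453791) fell from 9.20 and 9.19 to 8.48 and 8.42 (-0.75 ± 0.07) and from 9.01 and 8.86 to 8.32 and 8.32 with DMSO (-0.61 ± 0.06). It was the only gene called lower in both experiments on the deposited scale, and after quantile normalization CCNB1 and KIF20A were too. Without regular DMSO replicate 1 its change with DMSO was -0.54, under the fold limit. PRC1 and KIF23 fell by 0.35 and 0.22 in untreated cells (KIF23 in only 2 of 4 fits without 1 library) and did not pass with DMSO (-0.05 and 0.06), although PRC1 passed lower there after quantile normalization (-0.32), while ECT2 was at -0.14 in untreated cells, which did not pass (-0.23 and passed after quantile normalization), and fell by 0.34 with DMSO. TOP2A, which untangles chromosomes, fell by 0.23 in each experiment, from 9.14 and 9.16 to 8.95 and 8.89 in untreated cells and from 9.0 and 9.05 to 8.80 and 8.78 with DMSO (in untreated cells not passed without ischemic replicate 2). MKI67, which codes for the proliferation marker Ki-67, fell from 9.89 and 10.07 to 9.61 and 9.53 in untreated cells (-0.41 ± 0.08). With DMSO it was at 10.01 and 10.11 against 9.88 and 9.88 (-0.18 ± 0.07, adjusted p = 0.0262 from limma), which did not pass without regular DMSO replicate 2 (-0.13) or without either ischemic DMSO library. After quantile normalization the falls were larger, at -0.68 and -0.56 for MKI67 and -0.47 and -0.56 for TOP2A in untreated and DMSO-treated cells. FOXM1, the transcription factor of this gene program, did not pass in untreated cells (8.36 and 8.46 against 8.26 and 8.33, -0.11 ± 0.07) and was higher with DMSO (8.43 and 8.44 against 8.64 and 8.67, 0.22 ± 0.06), but after quantile normalization it was at -0.06 with DMSO and passed lower in untreated cells (-0.29). CDCA3, which helps destroy the mitotic inhibitor WEE1, passed in neither (-0.07 and 0.03).

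Set side by side, the untreated and the DMSO comparison share no library. In DMSO-treated cells 2 genes were called higher (UBE2C and KIF2C, 5.26%) and 2 lower (ASPM and ANLN, 5.26%), against 18.1% and 17.9% of 14024 genes. After quantile normalization this was 1 higher and 4 lower, with KIF2C at 0.50 under the fold limit and CCNB1 (-0.70) and KIF20A (-0.66) called lower, and CDC20, BIRC5 and AURKA were at -0.55, -0.53 and -0.48. At any size, 12 passed higher and 18 lower, against 34.4% and 35.2% of all genes. After quantile normalization this split was 6 higher and 20 lower, against 31.7% and 37.1% of all genes. CENPF, NUSAP1 and FOXM1 were then below 0 without passing. The median change was -0.17 (-0.01 over all genes), and it was -0.11 without regular DMSO replicate 1. Of the 38 genes, 16 passed lower in both experiments and 3 passed higher in both (UBE2C, KIF2C and NDC80), 4 passed only in untreated and 10 only in DMSO-treated cells, and 4 in neither. The changes in the 2 experiments correlated with r = 0.75 over the 38 genes, which are not independent and come from the same cell line. In 29 of 38 genes (76.3%) the change was more negative or less positive in untreated cells, against 50.2% of 13475 genes listed in both. Over all 38 genes the median difference, DMSO minus untreated, was 0.21, against 0.00 over those 13475 genes. The tables were normalized separately and the experiments differ in more than DMSO, so this difference was not tested, and solvent and experiment cannot be told apart.

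**Figure D3:**
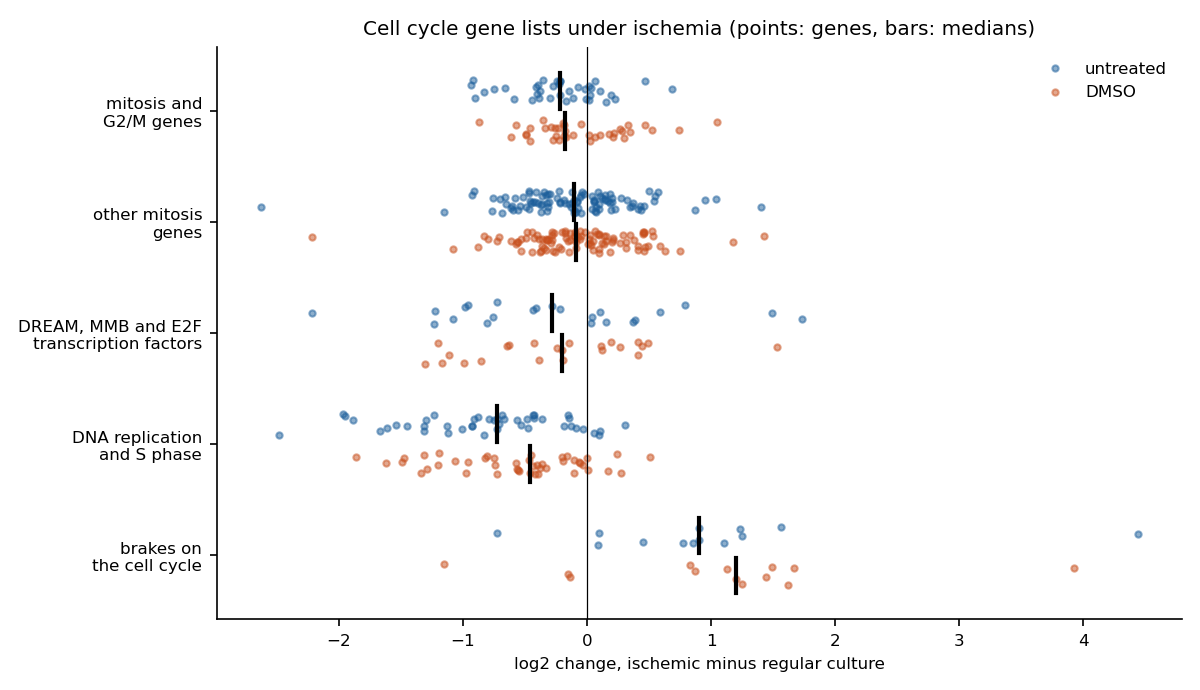
Log2 change between ischemic and regular culture of each gene of 5 cell cycle lists, untreated (blue) and with DMSO (orange); points are genes and black bars are medians. The medians of the 38 mitosis and G2/M genes are -0.22 and -0.17, those of the DNA replication list are -0.73 and -0.46, and those of the brakes are 0.90 and 1.20.

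Other genes of the cell cycle give the setting. Of 101 other mitosis genes, 4 were called higher and 13 lower in untreated cells (median -0.11), and 5 and 8 with DMSO (median -0.09), shares of 3.96% and 12.9% in untreated cells that lay under the background given above. Those farthest from 0 were CDC25A, the phosphatase that activates CDK1 and CDK2 (-2.63), and WEE1, the kinase that inhibits CDK1 (1.40). HJURP, the chaperone of CENPA, was called higher too (0.95), and ANAPC7, a subunit of the anaphase-promoting complex, lower (-1.15). Of all genes, 20.2% were called lower and 21.3% higher in untreated cells, and 17.9% and 18.1% with DMSO. Genes of DNA replication and S phase were more often lower, with 27 of 45 (60%) called lower and 0 higher in untreated cells. There 1 passed higher at any size, and 0 were called higher with voom. With DMSO 17 of the 45 (37.8%) were called lower and 0 higher. The medians of the 45 genes were -0.73 and -0.46. CCNE1 and CCNE2, the E cyclins of S phase entry, fell by 2.48 and 1.89, UHRF1 by 1.96 and CLSPN by 1.95 on the log2 scale in untreated cells. Of 23 genes of the DREAM, MMB and E2F transcription factors, 9 were called lower (39.1%) and 4 higher (17.4%) in untreated cells (median -0.28). E2F2 was at -2.22 and TFDP1 at -1.23, and the repressor E2F7 at 1.74 and LIN37 at 1.49. With DMSO 8 of the 23 were called lower (34.8%) and 1 higher (4.35%), and the median of the list was -0.20. E2F7 was then at 1.53, and LIN37 at 0.49, under the fold limit. Of 13 listed brakes on the cell cycle, 9 were called higher (69.2%) and 1 lower (7.69%) in untreated cells (median 0.90). CCNG2, an unusual cyclin that halts the cycle, led at 4.44. BTG1 was at 1.57, GADD45B at 1.25, and PLK2 at -0.72 was the 1 called lower.

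With either inhibitor, no mitosis or G2/M gene had an estimated change of 1.5 fold in either culture. The 0 genes called are to be read against 0.0998% of all genes for VX745 and 2.49% for MK25 in regular culture, and 5.26% and 9.67% in ischemic culture. Counts at an unadjusted p under 0.05 were 2 and 15 of 38 in regular and 7 and 15 in ischemic culture, and voom also called 0 in each. For VX745 in regular culture, 0 genes passed at any size, also with voom, against 0.178% of all genes higher and 0.157% lower. Its 3 changes of largest size were CENPE (-0.23, 95% interval -0.37 to -0.08), ASPM (-0.20) and KIF11 (-0.19). Leaving out SPC25, the widest 95% intervals of the other 37 genes reached from -0.40 to 0.29, so changes up to that size were not excluded by these libraries. For MK25 in ischemic culture such intervals reached from -0.54 to 0.64, so a rise of 1.5 fold was not excluded there. The 2 compounds act on different kinases, and the study's general methods list a higher concentration for MK25 than for VX745. The labels give no dose for these libraries, so whether the doses were matched is not known. Both compounds were compared with the same DMSO libraries, so their changes are not independent.

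With VX745 in ischemic culture 4 genes passed higher and 2 lower at any size, against 14% and 14.9% of all genes. PTTG1 fell from 7.65 and 7.66 with DMSO to 7.32 and 7.35 (-0.32 ± 0.06, adjusted p = 0.000571 from limma), and KIF2C from 8.44 and 8.45 to 8.17 and 8.22 (-0.25 ± 0.05). KIF20A rose from 7.63 and 7.63 to 7.90 and 7.87 (0.26 ± 0.05), and BUB1B by 0.17, which passed in 0 of 4 fits without 1 library. HMMR, a microtubule protein, was at 6.22 and 6.12 with DMSO and at 6.48 and 6.46 with VX745 (0.30 ± 0.09), and ASPM at 7.40 and 7.09 against 7.51 and 7.55 (0.28 ± 0.10). Neither passed without ischemic DMSO replicate 2 (0.25 and 0.12) or without either ischemic VX745 library. After quantile normalization 11 genes passed higher and 1 lower, against 11.4% and 9.84% of all genes. With no variance trend 1 and 2 did so, against 12.7% and 10.9%.

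With MK25 in regular culture 5 genes passed lower (CDC20, CENPE, KIF11, MKI67 and PLK1) and 1 higher (PTTG1), against 5.21% and 7% of all genes. With no variance trend 0 passed, and in a fit of these 4 libraries alone 1 passed lower and 0 higher. MKI67 was at 10.01 and 10.11 with DMSO and at 9.73 and 9.85 with MK25 (-0.27 ± 0.07), and CENPE at 7.05 and 6.95 against 6.66 and 6.77 (-0.29 ± 0.07). MKI67 did not pass without regular DMSO replicate 2 or regular MK25 replicate 1 (-0.22 and -0.21), and CENPE not without regular DMSO replicate 1 or regular MK25 replicate 1 (-0.23 each). PLK1 and PTTG1 passed in 2 of the 4 fits without 1 library, KIF11 in 0 and CDC20 (-0.25) in 3. Of the change with the largest size, SPC25 at -0.33 (0.04 and 0.65 against -0.19 and 0.22), nothing can be read, as the groups overlapped. In the same comparison 7 of 10 hypoxia genes were called higher (median 1.12), with NDRG1 at 1.32, and the part of this in the mitosis genes was not tested. In ischemic culture MK25 went with higher values of 10 genes and lower values of 2 at any size, against 19.8% and 22% of all genes. KIF20A rose from 7.63 and 7.63 to 8.08 and 7.98 (0.40 ± 0.05, adjusted p = 1.18e-05 from limma), and HMMR from 6.22 and 6.12 to 6.49 and 6.74 (0.45 ± 0.09). TOP2A (0.26), BUB1B (0.25), ASPM (0.30), DLGAP5 (0.20), CDCA3 (0.19), CENPF (0.18), NUSAP1 (0.18) and AURKA (0.16) also passed higher, of which AURKA, ASPM, CENPF, NUSAP1 and DLGAP5 passed in 2 of the 4 fits without 1 library and CDCA3 in 0. UBE2C, the gene with the largest rise under ischemia, fell from 9.20 and 9.42 to 9.01 and 8.85 (-0.38 ± 0.08), although after quantile normalization it was at -0.13 and did not pass, and PRC1 fell by 0.13, in 0 of 4 fits without 1 library. After that normalization 20 genes passed higher and 0 lower, and with no variance trend 6 and 1. The shares of all genes in these fits are not given here, so these counts have no background.

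**Figure D4:**
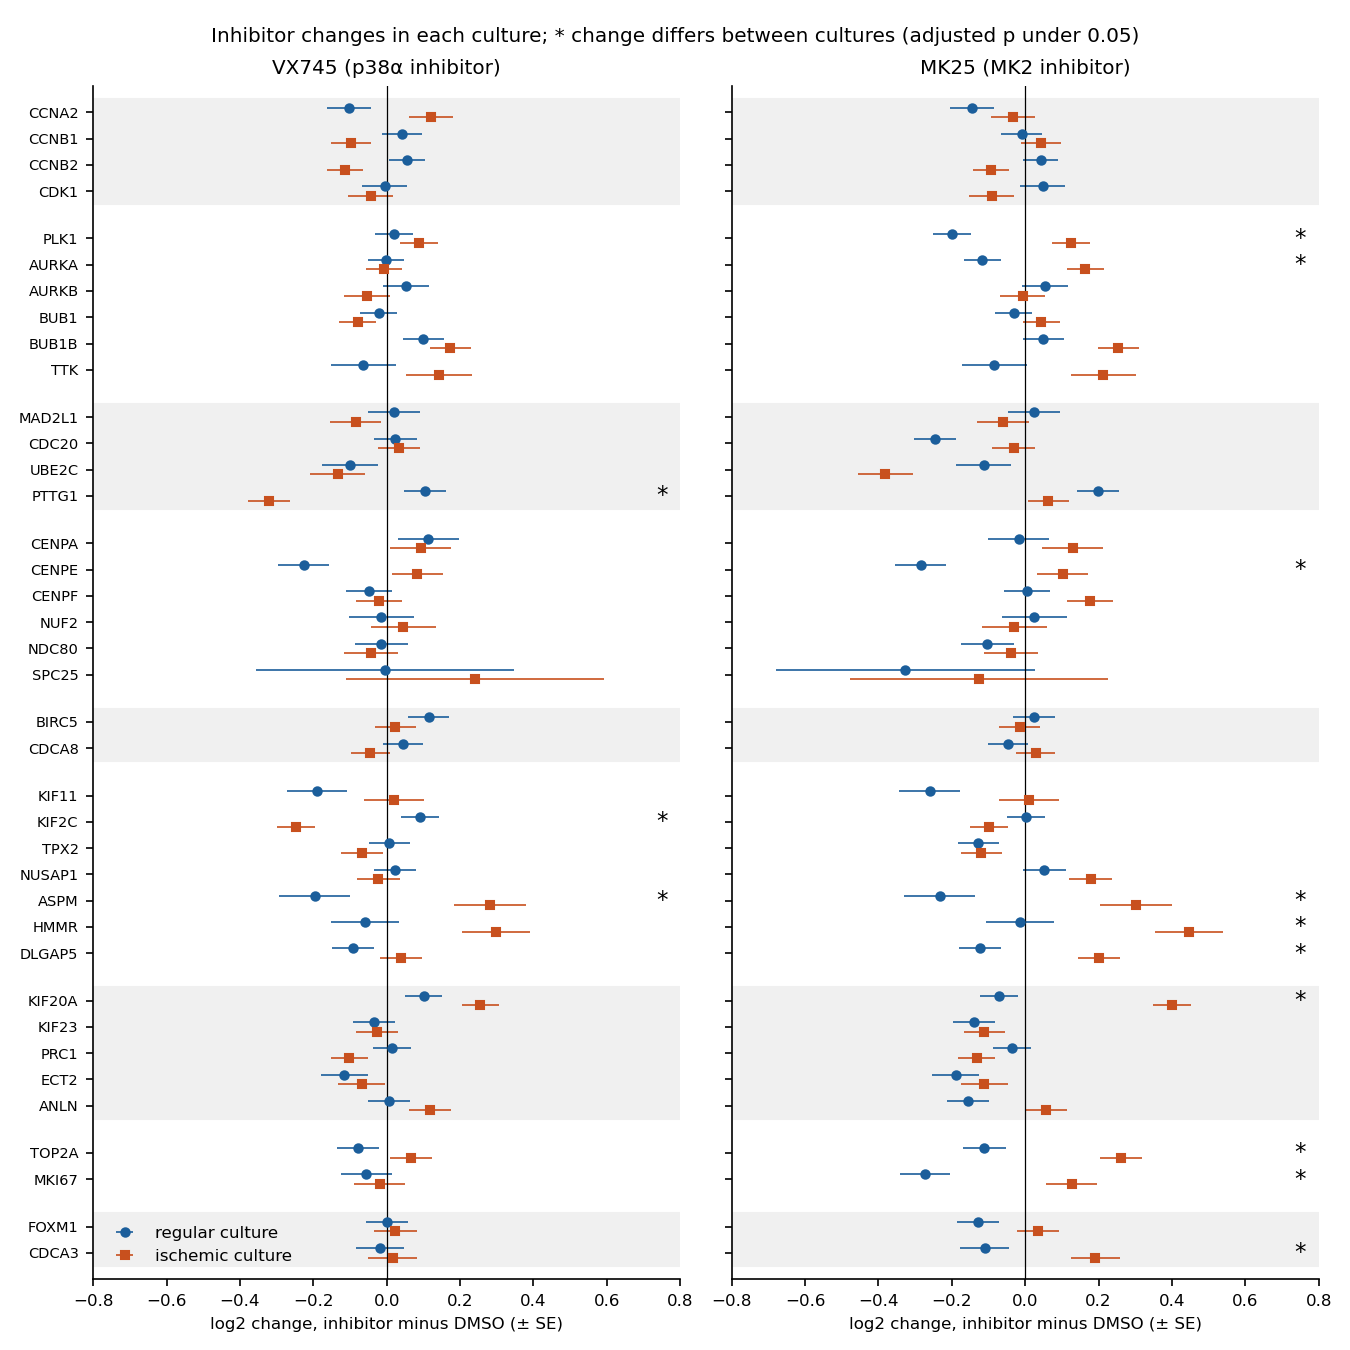
Log2 change of each of the 38 genes with VX745 (left) or MK25 (right) against DMSO, in regular (circles) and ischemic culture (squares). Bars are the SE from limma for 2 against 2 libraries, with the spread estimated from all 12 libraries and a trend over all genes. Stars mark genes whose change differed between cultures at an adjusted p under 0.05 from limma. On the right the squares of the 10 starred genes, from ASPM to AURKA, lie to the right of the circles, and on the left 1 starred gene lies so and 2 lie the other way.

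The change with MK25 differed between the cultures in 10 of 38 genes (26.3%), against 10.5% of all genes in that direction and 13.9% in the other. In all 10 the change with MK25 was more positive in ischemic than in regular culture, which does not mean a higher value there. The difference of the 2 changes was 0.54 ± 0.14 for ASPM, 0.47 ± 0.07 for KIF20A, 0.46 ± 0.13 for HMMR, 0.40 ± 0.10 for MKI67 and 0.39 ± 0.10 for CENPE. It was 0.37 for TOP2A, 0.32 for PLK1, 0.32 for DLGAP5, 0.30 for CDCA3 and 0.28 for AURKA, with adjusted p between 0.000192 and 0.0247 over the 10 genes from limma. MKI67 shows the pattern, with 10.01 and 10.11 (DMSO) and 9.73 and 9.85 (MK25) in regular culture, and 9.88 and 9.88 against 10.01 and 10.00 in ischemic culture. PLK1 was at 8.14 and 8.14 against 7.98 and 7.90 in regular culture, and at 8.47 and 8.46 against 8.60 and 8.58 in ischemic culture. The rises of MKI67 and PLK1 in ischemic culture did not pass by themselves. The limits of their falls in regular culture are given above. The median difference over the 38 genes was 0.14, against 0.00 over all genes and -0.11 over 1670 genes with a mean log2 value between 6.73 and 8.45, of which 9.82% passed higher and 30.8% lower. The 8 fits without 1 library gave 6 to 12 genes (6 without ischemic DMSO replicate 2), and 17 genes passed after quantile normalization. ASPM, HMMR and CENPE did not pass without ischemic DMSO replicate 2 or without ischemic MK25 replicate 2, and HMMR also not without regular DMSO replicate 1. For VX745 the difference passed in 3 genes, against 5.78% of all genes with a positive and 6% with a negative difference. Of the 1670 genes of like abundance, 5.63% passed higher and 14.9% lower. The 3 genes were ASPM (0.48 ± 0.14), PTTG1 (-0.43 ± 0.08) and KIF2C (-0.34 ± 0.07). After quantile normalization 3 genes passed higher and 1 lower, and with no variance trend 0 and 2. PTTG1 passed in all 8 fits without 1 library, KIF2C not without ischemic VX745 replicate 1 (-0.31) nor after quantile normalization (-0.21), and ASPM not without regular or ischemic DMSO replicate 2 (0.42 and 0.32) or any library with VX745.

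The change under ischemia was also taken within each inhibitor, in libraries that share no sample with the DMSO comparison. With VX745, 1 gene was called higher (UBE2C, 1.02 ± 0.08) and 1 lower (CCNB1, -0.63 ± 0.06), against 18.5% and 14.5% of all genes, and 11 passed higher and 13 lower at any size, against 34% and 32.6%. This split was 10 and 18 with libraries centred on their median, against 32.0% and 35.3% of all genes. It was 9 and 18 after quantile normalization, against 30.8% and 36.7%. With MK25, 3 genes were called higher (UBE2C at 0.78, PLK1 at 0.65 and KIF2C at 0.64) and 0 lower, against 17.7% and 15% of all genes, and voom also called 0 lower. At any size 18 passed higher and 10 lower, against 33.5% and 33.7%. The median change was -0.10 with VX745 and 0.10 with MK25. Some genes kept their direction in every one of the 4 ischemia comparisons with a passed test, which were CCNB1, BIRC5, ANLN, ASPM, MAD2L1 and DLGAP5 (lower) and UBE2C, KIF2C and NDC80 (higher). With MK25, DLGAP5 (-0.17) passed in 2 and ASPM (-0.34) in 3 of 4 fits without 1 library. Under ischemia with MK25, CCNB1 fell by 0.44, from 8.53 and 8.41 to 8.05 and 8.02, and ANLN by 0.40. KIF20A, lower in the other 3 comparisons, was at 8.01 and 8.03 in regular and 8.08 and 7.98 in ischemic cells with MK25, and these groups overlapped. MKI67 and TOP2A, lower under ischemia in untreated and in DMSO-treated cells, passed higher with MK25 (0.22 ± 0.07 and 0.14 ± 0.06), in 3 and 2 of the 4 fits without 1 library.

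Between the inhibitors, 0 genes were called in either culture, against 1.46% of all genes in regular and 3.96% in ischemic culture. At an unadjusted p under 0.05 there were 8 and 14 genes, and voom called 0 in each. At any size, CDC20 (-0.27) and PLK1 (-0.22) passed lower with MK25 than with VX745 in regular culture and 0 passed higher, against 1.43% and 3.96% of all genes. In ischemic culture 5 genes passed higher with MK25 (PTTG1 at 0.38, CENPF, NUSAP1, TOP2A and AURKA) and 1 lower (UBE2C at -0.25), against 8.22% and 10.2% of all genes. Without ischemic VX745 replicate 2 or ischemic MK25 replicate 2, 1 passed higher and 0 lower, as with no variance trend, without ischemic VX745 replicate 1 these were 2 and 0, and in a fit of these 4 libraries alone 11 and 2. In regular culture 0 passed without replicate 2 of VX745 or of MK25. PTTG1 was at 7.32 and 7.35 with VX745 and at 7.74 and 7.70 with MK25.

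Levels between genes were compared per length of a reference transcript, which may not be the isoform these cells use. In regular untreated cells UBE2C had 406 CPM per kb, CDC20 304, PTTG1 213, TPX2 206 and CCNB1 190, and SPC25 had the lowest level, 0.754. In regular DMSO-treated cells the order of the first 5 was unchanged, at 395, 256, 229, 185 and 176 CPM per kb, and SPC25 was again the lowest, at 0.945. MKI67 had the highest log2 value of the 38 genes in every regular library, and with the longest transcript (12716 bases) it was at 84.0 CPM per kb with DMSO.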

How the data were processed

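RNA of LN229 cells was sequenced in 16 libraries, and the deposited values are log2 normalized CPM per gene: the authors trimmed reads, aligned them with HISAT2 to GRCh38 and normalized counts with edgeR, adding a small offset before taking the log2. The strand setting, the counting program and the versions are not given in the sources used here, and the kit used for the libraries does not mark strand. Each experiment was normalized separately, so tests stayed within a table. Genes carry Entrez identifiers, of which 99.4% and 99.3% were matched to a symbol.

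The authors tested counts with edgeR, per the study's methods. As the values are log2, limma 3.58.1 (R 4.3.3, empirical Bayes with a trend, two-sided) was used on them as deposited, with no filter and no further pseudocount, and the Benjamini-Hochberg adjustment of p-values ran over every gene tested in a comparison. The 12 libraries of the second experiment were fitted together, and the difference of a drug's change between cultures is the interaction term. Whole reads were recovered from 100% of the values of up to 1000 reads, within 0.1 read, and were tested with voom as an alternative. The other alternatives were median centring, quantile normalization, a mean of at least 1 CPM, no variance trend, a replicate block, other fold limits and leaving out each library. The test was tried on simulated data.

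The genes and lists were chosen with earlier results of these data known. Genes given in full are CDK1, CCNB1, PLK1, AURKA, AURKB, TOP2A, MKI67 and FOXM1, those that changed most in a role, the 3 largest per inhibitor and culture, up to 5 per interaction, those that moved against most, and up to 4 per other list. Other values are given to account for every gene.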

Additional observations from a re-analysis of the deposited data

Results flagged for a closer look

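The change with an inhibitor differed between regular and ischemic culture, by limma's interaction term at an adjusted p under 0.05 over 14024 genes, in 13 cases, each given as the change in ischemic minus that in regular culture on the log2 scale. For MK25 these were ASPM (0.54, adjusted p = 0.00925), KIF20A (0.47, 0.000192), HMMR (0.46, 0.0174), MKI67 (0.40, 0.00667), CENPE (0.39, 0.00891), TOP2A (0.37, 0.00319), PLK1 (0.32, 0.00369), DLGAP5 (0.32, 0.00746), CDCA3 (0.30, 0.0247) and AURKA (0.28, 0.00793). For VX745 they were PTTG1 (-0.43, 0.00369), KIF2C (-0.34, 0.0081) and ASPM (0.48, 0.0325). The cases with MK25 were 26.3% of the 38 genes, against 10.5% of all genes with a positive and 13.9% with a negative difference. Those with VX745 were 7.89%, against 5.78% and 6% of all genes. Both inhibitors were compared with the same DMSO libraries, so the 2 cases of ASPM are not independent. Reads on listed genes ranged from 20122017 to 30228774 in regular and from 27239609 to 37562668 in ischemic libraries, and the part of depth in these differences was not tested. Groups of 2 libraries are too small for a check for single libraries far from the rest.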

How the results depend on the processing

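Counts of called genes among the 38 depended most on the fold limit. With a fold of at least 2 they were 0 in untreated cells, 1 with DMSO, 1 with VX745 and 0 with MK25 for ischemia, and with no fold limit 24, 30, 24 and 28. With no fold limit, VX745 in ischemic culture gave 6 genes, MK25 gave 6 in regular and 12 in ischemic culture, and MK25 against VX745 gave 2 and 6. After quantile normalization 1 gene was called for ischemia with MK25 and 17 for the interaction of MK25 with culture, and with no variance trend the latter gave 6. The causes of these differences were not tested, and the shares of all genes in those fits are not given here. Without 1 library at a time the counts were 7 to 9 in untreated cells, 3 to 4 with DMSO, 1 to 4 for the interaction of VX745 and 6 to 12 for that of MK25, and such a fit has an arm of 1 library, assumed to vary like the others. Of 525 alternatives to 46 values of named genes, 470 were counted as unchanged and 53 no longer passed. FOXM1 in untreated cells was the 1 that newly passed, at -0.29 after quantile normalization. Of the values that had passed, 1 turned, FOXM1 with DMSO, at -0.060 after quantile normalization. A value that had not passed was counted as unchanged also where its sign turned. CDK1 in untreated cells was such a value, at 0.02 and at -0.06 after quantile normalization.

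Replicate numbers were not taken as pairs, since deviations of libraries with the same number correlated between -0.09 and 0.13 over 15 pairs of groups in the second experiment and at 0.15 in the single pair of the first. The fit with a replicate block gave 8 called genes for ischemia in untreated cells, 4 with DMSO and 10 for the interaction of MK25, as without it. With 2 libraries in each group, changes within about 0.2 on the log2 scale are near the limit of what could pass, and the low gene SPC25 could show only far larger ones.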
